A study of Mus musculus with 12 samples.

Results

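The expression of 10 genes that act in fatty acid uptake and binding was followed in mouse epididymal white adipose tissue (eWAT), the fat pad that lies against the testis and epididymis. The genes were Lpl, Gpihbp1, Angptl4, Vldlr, Cd36, Slc27a1, Slc27a4, Fabp4, Fabp5 and Acsl1. They were chosen by symbol, all 10 were present among the 23474 genes of the table, and all 10 passed the filter on low values in every comparison. RNA-seq covered 12 libraries from male C57BL/6J mice, 3 in each of 4 groups. The ND group received a normal diet and the HFD group a high-fat diet. The GT group received the HFD with green tea ethanol extract added at 0.25% (w/w), and in the TJ group Taeeumjowuitang (TJ), an herbal medicine, was added at 3% (w/w). Feeding began at 5 weeks of age and lasted 12 weeks, so that all mice were 17 weeks old. The paper states that its mice were fasted for 12 h before the tissue was taken. The mice were wild type, and each group held 10 of them. Values are FPKM, fragments scaled to transcript length and library depth, so that levels can be compared between genes.

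These genes form a route into the fat cell. Lipoprotein lipase (Lpl) hydrolyses the triglyceride of circulating lipoproteins at the capillary wall, where the endothelial protein GPIHBP1 carries and anchors it, ANGPTL4 inactivates it and the VLDL receptor (Vldlr) binds the particles. Released fatty acids enter through CD36 and the transport proteins FATP1 (Slc27a1) and FATP4 (Slc27a4), are carried in the cytosol by the binding proteins FABP4 and FABP5, and are activated to acyl-CoA by Acsl1. Fabp4 is the main binding protein of adipocytes, and Fabp5 is also known from macrophages.

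ND replicate 1 stood apart from the other libraries and enters every ND value. Its summed FPKM of 6 male germ cell genes was 93763, against 0.602 to 2492 in the other 11 libraries, and its summed FPKM of 6 epididymis genes was 15182, against 0.0388 to 1662. Its adipocyte markers summed to 4412 FPKM, the lowest of all libraries. Of the 10 genes, 9 were lowest in it within the ND group. HFD replicate 2 also carried epididymis transcripts (1662 FPKM in sum), and HFD replicate 1 and ND replicate 3 carried germ cell transcripts (1823 and 2492 FPKM). Results for the ND group are therefore given with and without replicate 1. The approximate depth was 9.77M fragments in ND replicate 1 and 14.1M to 20.4M in the others.

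The TJ group differed from the HFD group in part of this route. Gpihbp1, Fabp4 and Slc27a1 were upregulated, and none of the 10 genes was downregulated. A gene was called a DEG when its fold change reached 1.5 and its limma p-value, adjusted over all genes, fell below 0.05. By this rule 3 of the 10 genes were higher DEGs, against a background of 7.41% of the 12807 genes tested, while 11.1% were lower DEGs. The TJ and HFD values did not overlap in 5 of the 10 genes. Of these, 4 were higher in the TJ group, where 20.1% of all genes tested were, and 1 was lower, where 31.4% were. The median log2 fold change of the 10 was -0.06, against -0.14 over all genes tested. Median-of-ratios scaling moved these medians to 0.08 and -0.02, and turned the DEGs from 949 higher and 1417 lower into 1285 higher and 1082 lower. The 3 calls were all lost when HFD replicate 1, 2 or 3 or TJ replicate 1 was left out, as was every other call, since limma then gave 0 DEGs over all genes (3732 to 4735 genes had an unadjusted p under 0.05). The log2 fold changes in these 4 fits were 1.67 to 2.05 for Gpihbp1, 1.15 to 1.28 for Fabp4 and 0.51 to 0.75 for Slc27a1.

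The GT group, which shares the HFD libraries with that comparison, shared 1 of these calls. Slc27a1 and Acsl1 were upregulated against the HFD group, 2 of 10 genes where 1.83% of the 12766 genes tested were higher DEGs. GT and HFD values did not overlap in 5 genes, Angptl4, Slc27a1, Slc27a4, Fabp4 and Acsl1, all of them higher in the GT group, as were 12.3% of all genes tested. The median log2 fold change of the 10 genes was 0.33, and that of all genes was -0.12 (0.46 and -0.01 with median-of-ratios scaling, under which 399 DEGs were higher and 145 lower in place of 233 and 231). Both calls were lost without any 1 of the HFD replicates and without GT replicate 2 or 3, where 4 to 66 DEGs were left over all genes.

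Between the TJ and GT groups none of the 10 genes was a DEG by limma, where 0.148% of the 12187 genes tested were. At an unadjusted p under 0.05, 3 of the 10 passed, Gpihbp1 (higher in the TJ group), Lpl and Acsl1 (both lower), as did 24.6% of all genes tested, so that the count is near the background. The 2 groups did not overlap in 6 of the 10 genes. Gpihbp1 and Fabp4 lay higher in the TJ group, where 19.5% of all genes tested lay higher without overlap, and Lpl, Vldlr, Slc27a4 and Acsl1 lay lower, where 14.9% did.

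Between the HFD and ND groups none of the 10 genes was a DEG with all libraries, against a background of 1.77% of 14430 genes, and 1 gene of the 10, Fabp5, had an unadjusted p under 0.05, as did 11.6% of all genes. The replicate number as a block left 0 DEGs over all genes, in place of 255. Without ND replicate 1, Fabp5 was a DEG, higher in the HFD group, where 15.4% of 13661 genes were DEGs. With the replicate number as a block as well, which leaves 2 pairs, it remained one, and 501 genes (3.67%) were DEGs in place of 2098. In 4 genes the groups then did not overlap. Fabp5 lay higher in the HFD group, as did 28.0% of all genes tested, and Lpl, Gpihbp1 and Acsl1 lay lower, as did 19.2%. The median log2 fold change of the 10 genes was 0.64 with all libraries and -0.12 without ND replicate 1.

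**Figure D1:**
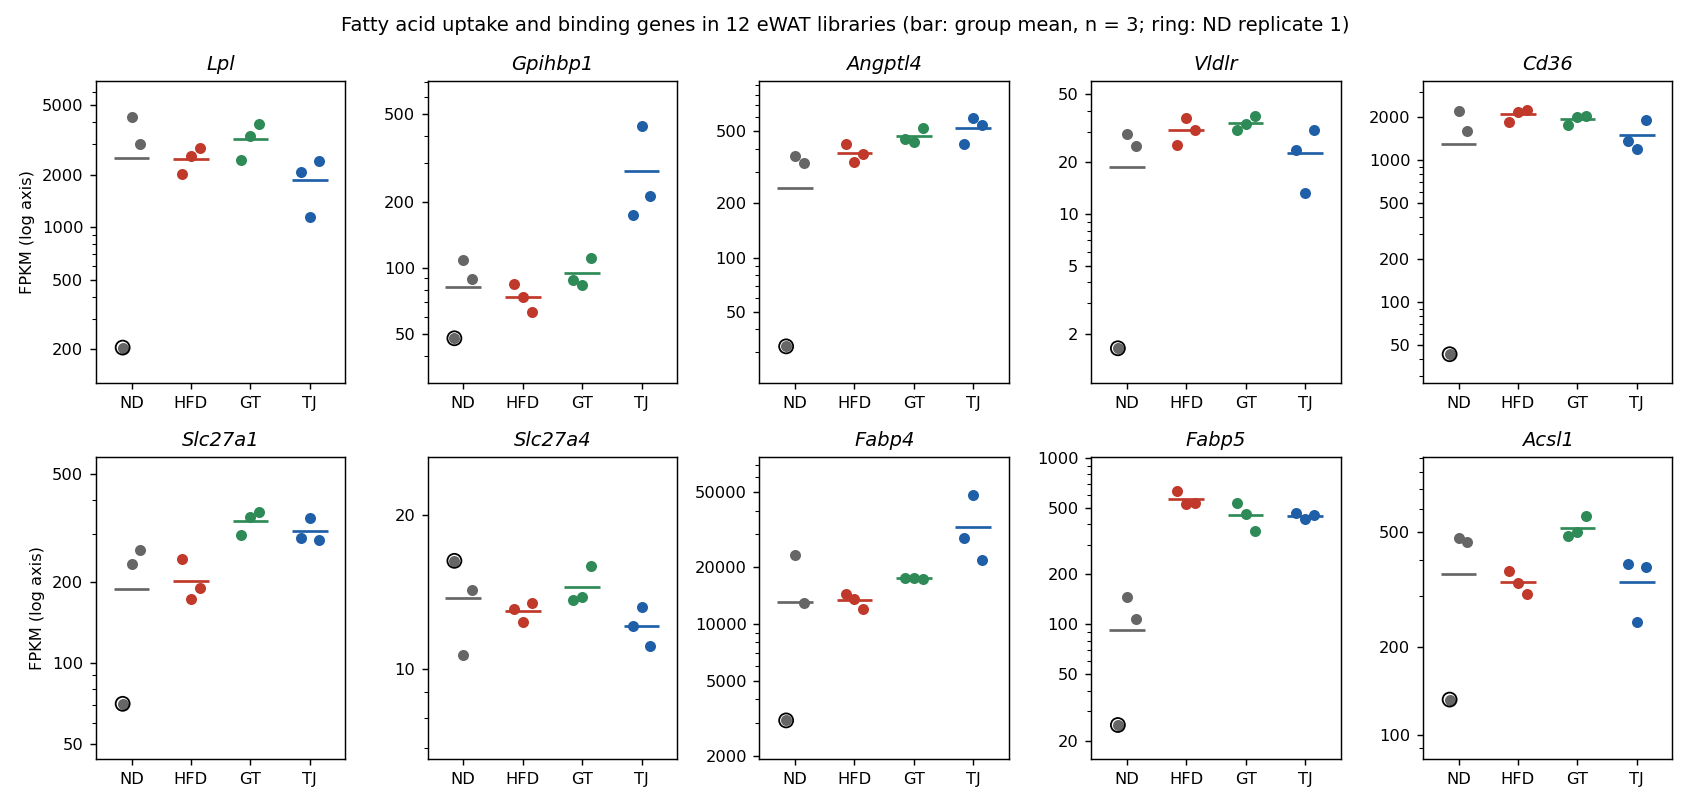
FPKM of each gene in each library on a log axis, by group (3 points per group; the bar is the group mean and the ring marks ND replicate 1). Gpihbp1 and Fabp4 lay higher in the 3 TJ libraries than in the other high-fat groups, Fabp5 lay between 365 and 639 FPKM in every high-fat library and at 147 or lower in the ND group, and ND replicate 1 was lowest of its group in 9 of 10 panels.

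**Figure D2:**
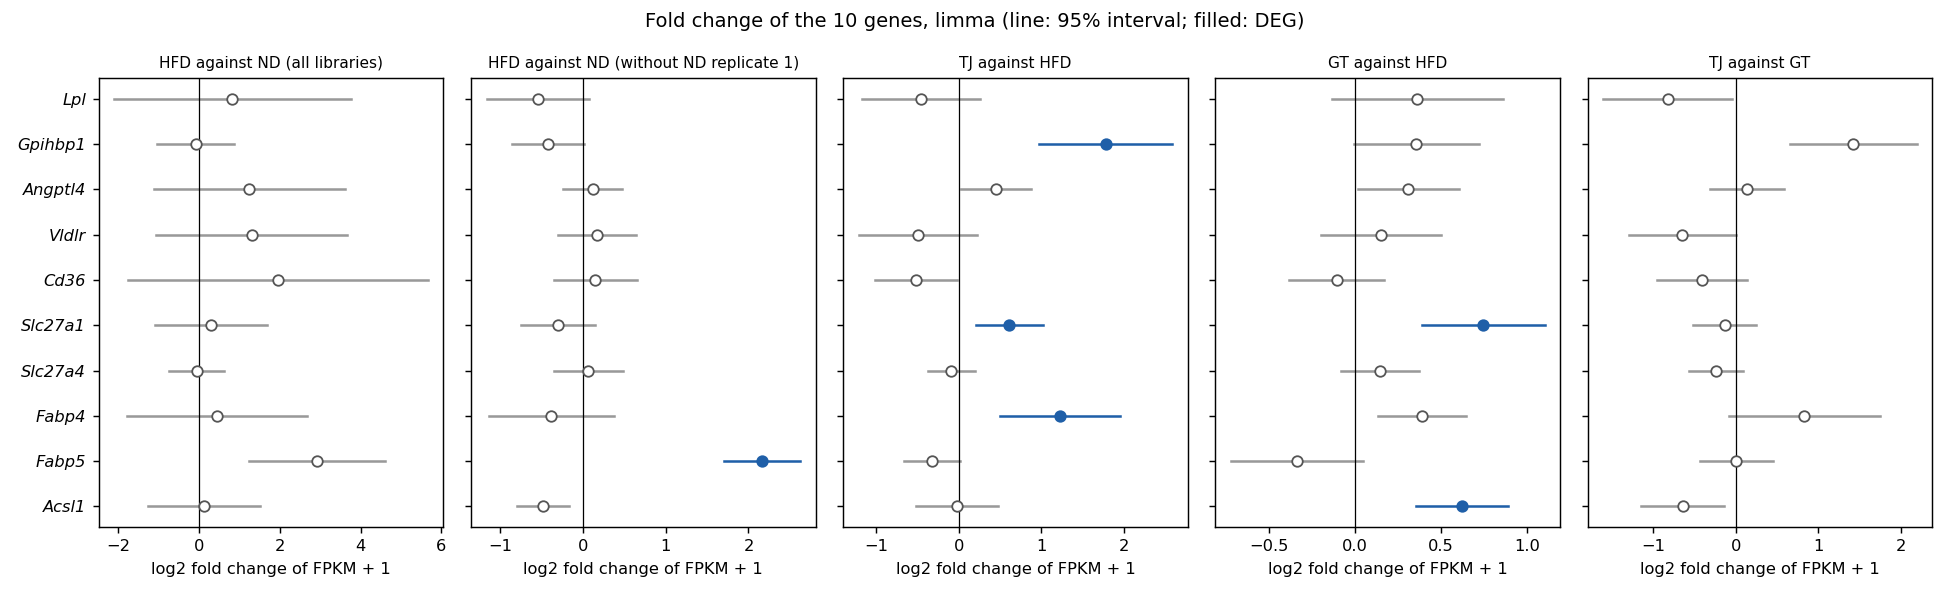
Log2 fold change of FPKM + 1 with its 95% interval (limma) for the 10 genes in each comparison, with HFD against ND shown with and without ND replicate 1 and with a scale of its own in each panel. Filled points mark DEGs: Fabp5 in HFD against ND without ND replicate 1, Gpihbp1, Slc27a1 and Fabp4 in TJ against HFD, and Slc27a1 and Acsl1 in GT against HFD.

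Lpl (ENSMUSG00000015568, GRCm38 chromosome 8, 68880491 to 68907448, plus strand) measured 2008, 2563 and 2866 FPKM in the HFD group, 2419, 3319 and 3908 in the GT group, and 2068, 1145 and 2403 in the TJ group. In the ND group it measured 205, 4309 and 2990 FPKM. The HFD range overlapped with those of GT and TJ, and every TJ library lay below every GT library. TJ against GT gave a log2 fold change of -0.82 (SE 0.34, adjusted p = 0.189), and TJ against HFD one of -0.46 (SE 0.30, adjusted p = 0.279). Without ND replicate 1 Lpl was 1.47-fold higher in the ND than in the HFD group (adjusted p = 0.204).

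Gpihbp1 (ENSMUSG00000022579, chromosome 15, 75596628 to 75599481, plus strand), the capillary partner of the lipase, was the gene of the 10 with the largest fold change in the TJ group. It measured 84.8, 73.8 and 63.1 FPKM in the HFD group and 175, 443 and 212 FPKM in the TJ group. In the GT group it measured 88.8, 84.2 and 112 FPKM, and in the ND group 48.0, 109 and 89.4 FPKM. All TJ libraries lay above all 9 other libraries. The mean was 276 ± 145 (SD, n = 3) in the TJ group and 73.9 ± 10.9 in the HFD group, a 3.74-fold difference. The log2 fold change was 1.78 (SE 0.34, adjusted p = 0.0261), and the exact two-sided permutation test gave p = 0.1, the smallest that 3 against 3 libraries allow. Without TJ replicate 2, the highest library, it was 1.38 (adjusted p = 0.00638). Against the GT group it was 1.42 (SE 0.33, adjusted p = 0.103).

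The summed level of 10 endothelial markers moved with Gpihbp1. It was 431 to 525 FPKM in the HFD group, 539 to 647 in the GT group and 808 to 1252 in the TJ group, and 5 of the 10 markers were higher DEGs in TJ against HFD and none was lower. Gpihbp1 per summed endothelial FPKM was 0.146 to 0.161 in the HFD group, 0.154 to 0.172 in the GT group, 0.186 to 0.354 in the TJ group and 0.161 to 0.216 in the ND group. The TJ values lay above those of the HFD and GT groups and overlapped with those of the ND group. In whole tissue, fewer cells of a type and less RNA per cell cannot be told apart, and the part of the endothelial signal in the Gpihbp1 difference was not tested. The ratio of Lpl to Gpihbp1 was 11.8, 2.59 and 11.3 in the TJ libraries, and 23.7 to 45.4 in the HFD and 27.2 to 39.4 in the GT libraries. In the ND libraries it was 4.26, 39.4 and 33.4. This ratio was chosen after the values were seen, and the TJ range lay below those of the HFD and GT groups.

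Angptl4 (ENSMUSG00000002289, chromosome 17, 33773750 to 33781830, minus strand), the inhibitor of the lipase, measured 424, 339 and 377 FPKM in the HFD group, 452, 437 and 524 in the GT group, and 425, 595 and 545 in the TJ group. Its ND values were 32.3, 367 and 332 FPKM. Both supplemented groups lay above the HFD group without overlap, the TJ group by a narrow margin at its lowest library. The log2 fold change was 0.45 for TJ (SE 0.18, adjusted p = 0.108) and 0.31 for GT (SE 0.12, adjusted p = 0.155), and neither passed the test.

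Vldlr (ENSMUSG00000024924) was expressed at a lower level, with 25.4, 36.4 and 31.0 FPKM in the HFD group and 23.5, 13.3 and 31.1 in the TJ group. It measured 31.2, 33.8 and 37.4 FPKM in the GT group and 1.64, 29.5 and 24.9 in the ND group. The TJ and HFD ranges overlapped. Every TJ library lay below every GT library, TJ replicate 3 only just. TJ against GT differed by -0.65 on the log2 scale (SE 0.28, adjusted p = 0.204).

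Among the membrane genes, Cd36 (ENSMUSG00000002944), the scavenger receptor that takes up long-chain fatty acids, kept a high level in the high-fat groups. It measured 1865, 2176 and 2254 FPKM in the HFD group, 1780, 2014 and 2044 in the GT group, and 1365, 1207 and 1908 in the TJ group. The ND values were 43.0, 2230 and 1595 FPKM. Of the TJ libraries, 2 lay below every HFD library and the third overlapped, and the log2 fold change was -0.51 (SE 0.21, adjusted p = 0.113). Without TJ replicate 3 it was -0.70 and Cd36 became a lower DEG (adjusted p = 0.0332). The GT group differed from the HFD group by -0.11 (SE 0.12, adjusted p = 0.555), and this difference was 0.02 with median-of-ratios scaling.

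Slc27a1 (ENSMUSG00000031808, chromosome 8, 71568882 to 71587302, plus strand) was the only gene of the 10 that was called in both supplemented groups. This transport protein of the plasma membrane measured 242, 173 and 190 FPKM in the HFD group, 298, 348 and 363 in the GT group, and 291, 345 and 286 in the TJ group. In the ND group it measured 70.6, 233 and 261 FPKM. Every GT and TJ library lay above every HFD library, and the GT and TJ ranges overlapped. The log2 fold change was 0.74 for GT (SE 0.15, adjusted p = 0.0482), a 1.67-fold higher mean, and 0.61 for TJ (SE 0.17, adjusted p = 0.0486), a 1.52-fold higher mean. Both lie close to the thresholds, and the TJ call was lost with quantile normalization (log2 fold change 0.40, adjusted p = 0.0873). Of the 19 alternative settings of each comparison, Slc27a1 was called in 7 for TJ and in 9 for GT.

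Its relative Slc27a4 (ENSMUSG00000059316) varied little between the groups. It measured 13.1, 12.3 and 13.4 FPKM in the HFD group, 13.6, 13.8 and 15.9 in the GT group, 12.1, 13.2 and 11.1 in the TJ group, and 16.3, 10.7 and 14.3 in the ND group. It was the only gene of the 10 whose highest ND value was in replicate 1. Its log2 fold change was -0.09 for TJ against HFD (95% interval -0.38 to 0.20, and 0.04 with median-of-ratios scaling) and 0.15 for GT against HFD (95% interval -0.08 to 0.37). Slc27a1 thus exceeded Slc27a4 by 14.0- to 18.5-fold in the HFD group, 21.9- to 25.1-fold in the GT group and 23.9- to 26.1-fold in the TJ group. In the ND group the ratio was 4.33, 21.9 and 18.3, with replicate 2 at the level of the lowest GT library.

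Fabp4 and Fabp5 lie near each other on chromosome 3, with Fabp9 between them, and encode binding proteins of one family. Fabp4 (ENSMUSG00000062515) lies at 10204088 to 10208576 on the minus strand and Fabp5 (ENSMUSG00000027533) at 10012548 to 10016607 on the plus strand, 187481 bases apart. Their coding sequences, 399 and 408 nt long, are identical at 243 of 399 aligned bases (60.9%), with a longest shared run of 12 nt. A stretch of 90 bases (coding bases 271 to 360 of Fabp4 and 277 to 366 of Fabp5, 5′ to 3′) is shown because the results turn on telling the 2 transcripts apart, with the 26 differing bases in capitals.
Fabp4: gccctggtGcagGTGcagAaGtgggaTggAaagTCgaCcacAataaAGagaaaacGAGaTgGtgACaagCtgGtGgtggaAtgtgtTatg
Fabp5: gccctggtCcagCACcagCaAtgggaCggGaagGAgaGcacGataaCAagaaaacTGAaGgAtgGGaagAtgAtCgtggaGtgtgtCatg
The 2 therefore shared no run of 50 coding bases. Fabp5 shares such runs with 5 other annotated genes (Fabp5l2, Gm13998, Gm14328, Gm6100 and Gm6166), none of which has a row in the table, and its level is uncertain to that extent. The other 9 genes share none.

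Fabp4 was among the 3 most abundant genes of every library but ND replicate 1, where it ranked 29, and was the most abundant gene of all 3 TJ libraries. It measured 14495, 13621 and 12038 FPKM in the HFD group, 17589, 17492 and 17367 in the GT group, and 28658, 48299 and 21797 in the TJ group. The ND values were 3090, 23308 and 13012 FPKM. The 3 high-fat groups did not overlap, with the order HFD, GT, TJ from low to high. The mean of the TJ group was 2.46-fold that of the HFD group, with a log2 fold change of 1.22 (SE 0.31, adjusted p = 0.0390). It was 0.91 without TJ replicate 2 (adjusted p = 0.0180), 0.77 with the trend of transcript length removed (adjusted p = 0.0297) and 0.56, below the 1.5-fold threshold, with quantile normalization. GT against HFD gave 0.39 (SE 0.11, adjusted p = 0.0772) and TJ against GT gave 0.83 (SE 0.39, adjusted p = 0.228).

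Fabp5 showed another order of the groups. It measured 24.8, 147 and 107 FPKM in the ND group and 639, 530 and 539 in the HFD group, 539, 461 and 365 in the GT group, and 470, 429 and 459 in the TJ group. Every library on the HFD, with or without a supplement, lay above every ND library. HFD against ND gave a log2 fold change of 2.93 (SE 0.69, adjusted p = 0.134) with all libraries and 2.17 (SE 0.18, adjusted p = 0.00234) without ND replicate 1, a 4.47-fold difference of means. The TJ libraries lay below the HFD libraries without overlap, with a log2 fold change of -0.33 (SE 0.14, adjusted p = 0.131). Fabp5 was a lower DEG in TJ against HFD with quantile normalization (-0.64, adjusted p = 0.0342) and with the trend of transcript length removed (-0.74, adjusted p = 0.0278). GT against HFD gave -0.34 (SE 0.16, adjusted p = 0.217), and the ranges overlapped.

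The ratio of Fabp4 to Fabp5, chosen after the values were seen, fell into separate ranges in the ND, HFD and supplemented groups. It was 125, 158 and 121 in the ND group, 22.7, 25.7 and 22.4 in the HFD group, 32.6, 38.0 and 47.6 in the GT group, and 61.0, 113 and 47.5 in the TJ group. It was lowest in the HFD group and highest in the ND group, where replicate 1 did not stand apart, and the GT and TJ ranges overlapped only at GT replicate 3 and TJ replicate 3. Because both values come from the same library, multiplying a library by 1 factor leaves the ratio as it is, whereas quantile normalization does not.

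**Figure D3:**
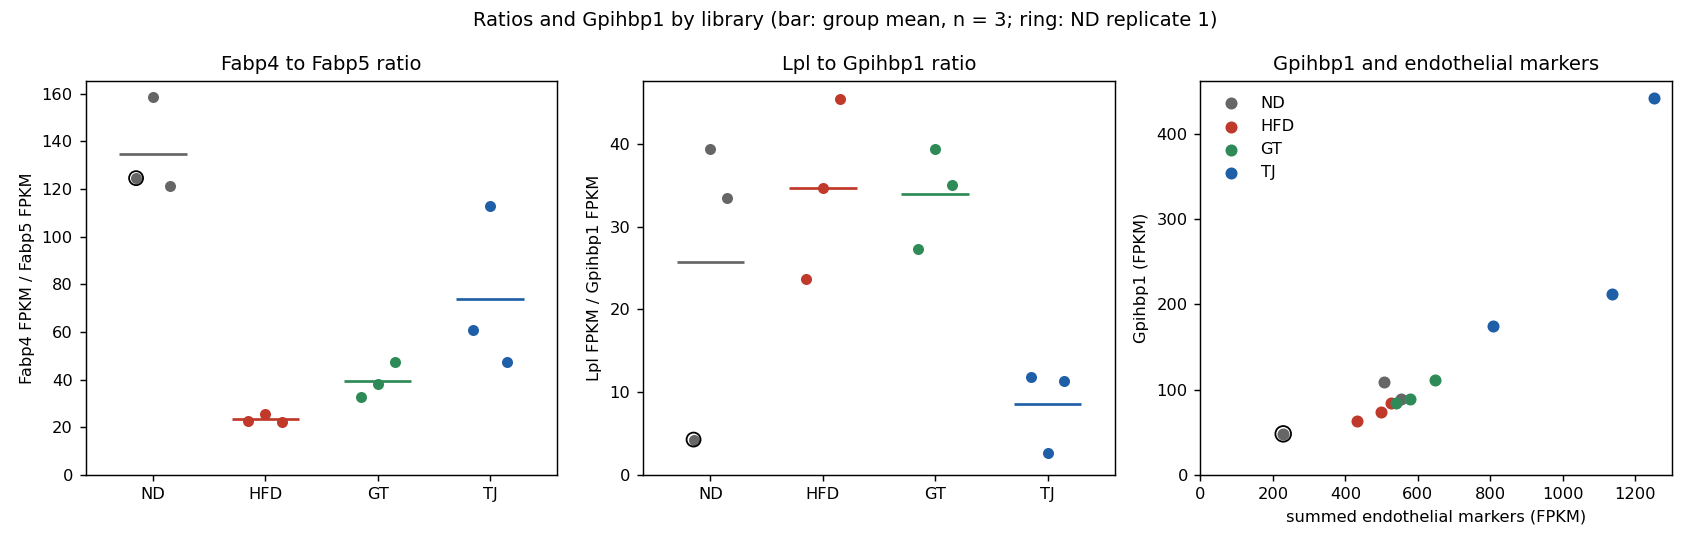
Ratio of Fabp4 to Fabp5 and of Lpl to Gpihbp1 by library and group (bars are group means of 3 libraries), and Gpihbp1 against the summed FPKM of 10 endothelial markers, with ND replicate 1 ringed. The Fabp4 to Fabp5 ratio was 22.4 to 25.7 in the HFD group and 121 to 158 in the ND group, and the TJ libraries had the lowest Lpl to Gpihbp1 ratios of the 3 high-fat groups, 2.59 to 11.8.

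Markers of other cells moved with the binding proteins. The summed level of 10 macrophage markers was 94.99 to 657 FPKM in the ND group, 4876 to 6928 in the HFD group, 1868 to 4834 in the GT group and 966 to 3509 in the TJ group. All 10 were higher DEGs in HFD against ND without ND replicate 1 (9 with the replicate block), 6 were lower DEGs in TJ against HFD, and none was a DEG in GT against HFD. The summed level of 8 adipocyte markers was 5568 to 5693 FPKM in the HFD group, 7616 to 12423 in the GT group and 9845 to 22613 in the TJ group, with 6 higher DEGs in TJ and 4 in GT against HFD. In the ND group it was 4412 in replicate 1 and 13920 and 12164 in the others, and without replicate 1, 7 of the 8 were lower DEGs and 1 was higher in HFD against ND (3 lower with median-of-ratios scaling, 2 lower with the replicate block), where Lpl, Gpihbp1 and Acsl1 also lay lower. In TJ against HFD 7 of the 8 adipocyte markers were higher, unevenly, by log2 fold changes of 0.64 (Pnpla2, not a DEG) to 3.36 (Cfd). Lep went the other way without overlap (-0.96, limma adjusted p = 0.111) and was not a DEG. The 5 progenitor markers summed to 631 to 735 FPKM in the HFD, 499.9 to 533 in the GT and 481 to 545 in the TJ group, with 2 lower DEGs in TJ and 3 in GT against HFD. No endothelial, macrophage or adipocyte marker was listed at 0 in any library. The part of these cells in the differences of the 10 genes was not tested.

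Acsl1 (ENSMUSG00000018796, chromosome 8, 46471037 to 46536051, plus strand), the main acyl-CoA synthetase of fat cells, was called in GT against HFD and not in TJ against HFD. It measured 367, 333 and 306 FPKM in the HFD group, 484, 499 and 566 in the GT group, and 386, 245 and 378 in the TJ group. The ND values were 132, 477 and 461 FPKM. The GT libraries lay above every HFD and TJ library, whereas the TJ and HFD ranges overlapped. The log2 fold change was 0.62 for GT against HFD (SE 0.11, adjusted p = 0.0395), a 1.54-fold higher mean, and -0.02 for TJ against HFD (95% interval -0.51 to 0.47, and 0.12 with median-of-ratios scaling). TJ against GT gave -0.64 (SE 0.22, adjusted p = 0.15). Without ND replicate 1 the HFD group lay below the ND group by a log2 fold change of -0.49 (SE 0.13, adjusted p = 0.0592).

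Promoter windows from RefSeq (GRCm38.p6, 250 bases before to 50 bases after a start) were found for 5 of the 10 genes: Slc27a1, Slc27a4, Cd36, Acsl1 and Vldlr. None was found for Lpl, Gpihbp1, Angptl4, Fabp4 and Fabp5. The windows of the first starts of Slc27a1 (chr8:71568621-71568920, plus strand) and Acsl1 (chr8:46470787-46471086, plus strand) are shown, 5′ to 3′, because these 2 genes rose together in the GT group. Capitals mark matches, on either strand, to GGGCGG, the GC box, and CCAAT.
Slc27a1: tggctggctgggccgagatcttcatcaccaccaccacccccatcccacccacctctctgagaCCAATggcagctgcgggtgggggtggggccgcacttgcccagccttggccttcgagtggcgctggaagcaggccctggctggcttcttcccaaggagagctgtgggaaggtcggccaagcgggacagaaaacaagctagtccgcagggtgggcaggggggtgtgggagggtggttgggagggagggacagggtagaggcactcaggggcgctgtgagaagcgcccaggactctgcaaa
Acsl1: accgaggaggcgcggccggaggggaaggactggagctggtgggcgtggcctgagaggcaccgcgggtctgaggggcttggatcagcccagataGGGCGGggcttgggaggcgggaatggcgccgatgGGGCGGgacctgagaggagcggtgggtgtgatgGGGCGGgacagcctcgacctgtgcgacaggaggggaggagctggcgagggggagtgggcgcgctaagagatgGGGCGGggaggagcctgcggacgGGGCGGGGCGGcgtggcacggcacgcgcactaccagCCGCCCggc
The Acsl1 window held 7 GC boxes, of which 2 shared a base and 1 was on the minus strand, and no CCAAT, with a GC content of 74.0%. The Slc27a1 window held 1 CCAAT and no GC box, with a GC content of 65.7%, and the windows of its other 2 starts held 1 and 3 GC boxes. The window of the second Acsl1 start (chr8:46490716-46491015) held no GC box and 2 CCAAT, with a GC content below the median of all windows. Of 32851 windows in the same table, 35.7% held GGGCGG and 37.4% held CCAAT, and the median GC content was 52.7%. AGGTCA and TATAAA, which 16.3% and 13.6% of windows held, were in neither of the 2 windows shown. A match says only that these letters are present.

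Within the TJ group the 10 genes did not move as 1 block. TJ replicate 2 held the highest TJ value for 5 genes, Gpihbp1, Angptl4, Slc27a1, Slc27a4 and Fabp4, and the lowest for the other 5. Its Fabp4 level was 48299 FPKM, its Gpihbp1 level 443 FPKM and its Lpl level 1145 FPKM. The same library stood apart in its summed adipocyte markers, 22613 FPKM (10651 and 9845 in the other TJ libraries). Its macrophage markers summed to 966 FPKM (3509 and 2741 in the others). Its endothelial sum was 1252 FPKM, near that of TJ replicate 3 (1137) and above that of TJ replicate 1 (808). Its FPKM summed over all genes was the highest of the high-fat libraries. Lpl, Vldlr, Cd36 and Acsl1, lowest in it, have longer transcripts than Gpihbp1, Angptl4, Slc27a1 and Fabp4, highest in it. Fabp5, with a short transcript, and Slc27a4, with a long one, went the other way. The part of transcript length in this pattern was not tested. The 10 genes together made up 3.54% to 3.72% of the summed FPKM of the HFD libraries, 4.27% to 4.64% of the GT and 4.88% to 7.27% of the TJ libraries, and Fabp4 alone made up 2.28% to 2.63%, 3.15% to 3.19% and 3.79% to 6.66%. Across the 9 libraries of the high-fat groups, log2 levels of Gpihbp1 and Fabp4 correlated with r = 0.956 (Spearman's rho 0.900), those of Lpl and Vldlr with r = 0.932 (rho 0.850), and those of Cd36 and Fabp4 with r = -0.934 (rho -0.867). Fabp5 and the summed macrophage markers correlated with r = 0.799 (rho 0.883), and Gpihbp1 and the summed endothelial markers with r = 0.970 (rho 0.983). Other pairs of these genes and marker sums were also high. Gpihbp1 gave r = 0.871 with the adipocyte and -0.859 with the macrophage markers, Fabp4 gave 0.901 with the adipocyte, 0.884 with the endothelial and -0.832 with the macrophage markers, and Fabp5 gave -0.769 with the adipocyte markers. These are descriptions over libraries that fall into groups, with scaling shared within each library.

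Over the 11 libraries without ND replicate 1, and among 10084 genes whose mean reached 5 FPKM, the genes most like Lpl by Pearson's r included Ptgr2 (0.988), Fam126b (0.977), Bmpr1a (0.963) and St13 (0.957). Those most like Fabp4 were Churc1 (0.989), Ndufc2 (0.988), Ndufs5 (0.983), Ndufa1 (0.982) and Cox7a2 (0.981). Of these, Ndufc2, Ndufs5 and Ndufa1 encode subunits of respiratory complex I and Cox7a2 a subunit of cytochrome c oxidase. Removing the trend of transcript length lowered the Fabp4 difference in TJ against HFD, as given above. The part of that trend in the likeness to Fabp4 was not tested. The mean z-score of the 10 genes was followed most closely by Mgll (0.939), the monoglyceride lipase that completes triglyceride breakdown, and by Map6 (0.931), Btd (0.928), Rmc1 (0.921) and Cers4 (0.900). With ND replicate 1 included the lists changed to Bmpr1a, Ddx3y, Slc24a3, Ptgr2 and Atrnl1 for Lpl (0.990 to 0.993), Cyb5a, H2-T22, Lonp2, Mcee and Dbi for Fabp4 (0.985 to 0.991), and Mgll, Anxa6, Btd, Rmc1 and Entpd2 for the mean z-score (0.990 to 0.996).

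A wider list of 47 genes of lipase maturation and inhibition, lipoprotein receptors, membrane uptake, cytosolic binding and activation gave the surroundings of the 10. In TJ against HFD 34 of them were tested, of which 5 were higher and 6 lower DEGs, where 7.41% of all genes tested were higher and 11.1% lower, with a median log2 fold change of -0.29 against -0.14 over all genes. The higher DEGs included Acsm3 (1.72), Apoc1 (1.61), Dbi (0.97) and Cavin1 (0.69). Acsm3 measured 0.593, 0.850 and 0.856 FPKM in the HFD group and 2.72, 12.2 and 3.00 in the TJ group. It passed the filter on low values only through the group where it was high, and so had to differ. Apoc1 encodes an inhibitor of lipoprotein lipase, Dbi the acyl-CoA binding protein, and Cavin1 a coat protein of caveolae. Apoc1 measured 96.3, 89.7 and 61.5 FPKM in the HFD group and 210, 356 and 210 in the TJ group, and Dbi measured 2398, 2142 and 1849 against 3919, 5618 and 3215.

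The lower DEGs in TJ against HFD included Fabp3 (-1.49), Acsl4 (-1.04), Got2 (-1.02), Acss2 (-0.88) and Acot1 (-0.80). Acsl4, a synthetase that prefers arachidonate, measured 12.5, 20.9 and 19.6 FPKM in the HFD group and 8.60, 5.83 and 9.63 in the TJ group. Fabp3, the binding protein of heart and muscle, measured 2.75, 1.57 and 3.40 FPKM in the HFD group and 0.238, 0.169 and 0.306 in the TJ group, and likewise passed the filter only through the group where it was high. All 11 calls were lost in the same 4 fits that left 0 DEGs over all genes.

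**Figure D4:**
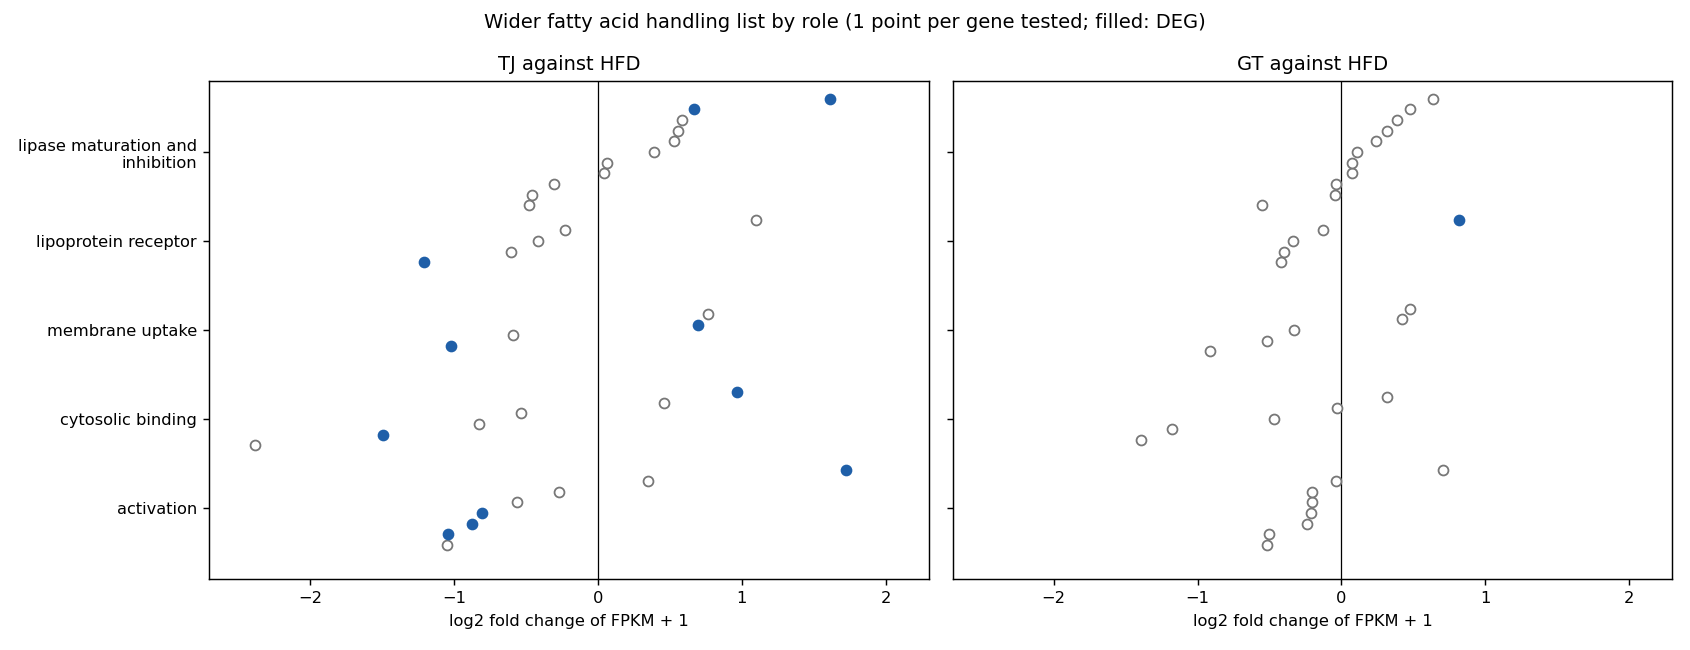
Log2 fold change of FPKM + 1 for the tested genes of the wider list, 1 point per gene by role, in TJ against HFD and GT against HFD (34 genes each). Filled points are DEGs: 5 higher and 6 lower in the TJ group, and Apoe alone in the GT group.

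In GT against HFD 1 of 34 tested genes was a DEG, Apoe, a ligand of lipoprotein receptors, which was higher in the GT group, where 1.83% of all genes tested were higher DEGs. It measured 3009, 2452 and 2415 FPKM in the HFD group and 4112, 4829 and 4905 in the GT group, with a log2 fold change of 0.82 (SE 0.13, adjusted p = 0.0379). The wider list held 0 DEGs without HFD replicate 1, 2 or 3, without GT replicate 2 or 3, with quantile normalization, with the replicate block or without the mean-variance trend. Between the TJ and GT groups 0 of 31 were DEGs by limma, and 11 had an unadjusted p under 0.05, where 0.148% and 24.6% of all genes did so. In HFD against ND 1 of 39 was a DEG with all libraries, where 1.77% of all genes were, and it was Fabp7, which was higher in the HFD group (log2 fold change 2.4, adjusted p = 0.0355) and measured 6.62, 3.91 and 4.64 FPKM there. Its ND values were 0.136, 0.265 and 0 FPKM, so that it too passed the filter only through the group where it was high. With the replicate number as a block this call was lost, and 0 of 39 were DEGs.

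Without ND replicate 1, 8 of 39 genes of the wider list were DEGs in HFD against ND, 5 higher and 3 lower, where 15.4% of all genes tested were DEGs. With the replicate number as a block as well, 1 of the 39 was a DEG, Acsm3 (-3.58, adjusted p = 0.0273), where 3.67% of all genes were. Without the block the higher ones included Fabp7 (2.4), Lrp1 (1.27), Acss2 (1.05) and Acsl5 (0.80), and the lower ones were Acsm3 (-3.65), Apoe (-1.16) and Pcsk6 (-1.07). Fabp7 and Acsm3 (23.2 and 19.3 FPKM in ND replicates 2 and 3) again passed the filter only through the group where each was high. Of those named, Acss2 was lower and Acsm3 was higher in TJ against HFD, and Apoe was higher in GT against HFD. All these comparisons share the HFD libraries, so that the opposite signs are not independent. Cav1, Cav2, Fabp2 and Fabp6 were listed at 0 in all 12 libraries. A listed 0 may come from the processing of the reads, and absence of these transcripts from eWAT was not tested.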

How the data were processed

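The mRNA of eWAT was sequenced as paired-end reads from 12 Illumina TruSeq libraries. The authors filtered the reads, mapped them with STAR (version 2.4.0 per the labels; the paper's methods give another version) and deposited FPKM per gene computed with Cufflinks 2.1.1 on Ensembl release 72, correcting for multireads and fragment bias. Although the human genome is named in the methods, all identifiers are mouse ones. Counts were not used here, and depth was only estimated, from a peak at low values of FPKM times transcript length. This peak was sought among long genes with a single transcript and taken as the level of a single fragment.

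Symbols and GRCm38 coordinates came from GENCODE mouse release 21 (22671 of 23474 identifiers matched). Groups were compared on log2(FPKM + 1) with limma 3.58.1 in R 4.3.3 (mean-variance trend, the 6 libraries compared, no covariates), for genes whose mean reached 1 FPKM, with Benjamini-Hochberg adjustment over all genes tested. A fold change on this scale understates changes of low genes. Ratios of mean FPKM are given for some of the 10 genes. Exact two-sided permutation tests used scipy 1.17.1. The members and lists were chosen with earlier results of these data known. All 10 members were named in every comparison, and up to 4 DEGs of the wider list in each direction by size of change; further ones were named after their values were seen. Some genes are not reported here by name.

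Same-numbered HFD and ND libraries deviated together from their group means (r = 0.547, 0.342 and 0.122), and the numbers were taken to pair them from these data alone, although HFD replicate 3 and ND replicate 2 gave r = 0.626. Deviations cancel within each group, so that these r values are not independent. ND replicate 1 enters all of them, and r was not computed without it. The part of the germ cell transcripts in both HFD replicate 1 and ND replicate 1 was not tested. Nothing in the labels names what a number shares. The methods give 3 mice for HFD and 3 for TJ, as many as there are libraries. For ND and GT the sources used here do not give the number of mice sequenced, and p-values there measure only the spread between libraries, which may be technical. No 2 libraries held identical values.

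As alternatives, the pseudocount was set to 0.1 or 0.01, the filter was dropped or raised to 5 FPKM, values were rescaled (median-of-ratios, quantile), all 12 libraries entered 1 fit, replicate numbers became a block, array weights were used, the trend or the fold threshold was dropped, and each library was left out. Added after seeing the data were removal of the trend with transcript length (lowess, span 0.5), a fit of all libraries but ND replicate 1, and ND replicate 1 left out together with another scaling or with the block.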

Additional observations from a re-analysis of the deposited data

How the results depend on the processing

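The calls rest on small groups. Leaving out 1 library at a time gave 0 to 1 of the 10 genes as DEGs in HFD against ND, 0 to 3 in TJ against HFD, 0 to 2 in GT against HFD and 0 in TJ against GT. For the wider list it gave 0 to 8, 0 to 12, 0 to 3 and 0, and for all genes 0 to 2098, 0 to 3412, 4 to 1107 and 4 to 81. In HFD against ND the library that gave 1 of the 10, 8 of the wider list and 2098 in all was ND replicate 1. In these fits the log2 fold change spanned -0.55 to 1.65 for Lpl, -0.43 to 0.16 for Gpihbp1, -0.30 to 0.63 for Slc27a1, -0.22 to 0.064 for Slc27a4, -0.38 to 1.07 for Fabp4 and -0.49 to 0.44 for Acsl1 in HFD against ND, -0.13 to 0.19 for Acsl1 in TJ against HFD, and -0.14 to 0.14 for Fabp5 in TJ against GT.

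The replicate block gave 2 of the 10 genes as DEGs in TJ against HFD, losing Slc27a1 (adjusted p = 0.0994), 0 in GT against HFD and 0 in the other comparisons, with 5 of the wider list in TJ against HFD and 0 in the others. Over all genes the block gave 0 in HFD against ND, 1198 in TJ against HFD, 5 in GT against HFD and 18 in TJ against GT. Same-numbered libraries deviated together only in HFD against ND, with r of -0.029, -0.051 and 0.227 in TJ against HFD, 0.198, 0.053 and -0.070 in GT against HFD, and 0.371, -0.213 and -0.079 in TJ against GT. In HFD against ND none of the 10 genes was a DEG with or without the block. Without ND replicate 1 the block, fitted with 2 pairs, gave 1 of the 10 genes (Fabp5, 2.08, adjusted p = 0.0321), 1 of the wider list and 501 in all, with -0.41 for Lpl, -0.44 for Slc27a1, 0.057 for Slc27a4, -0.44 for Fabp4 and -0.55 for Acsl1.

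With all 12 libraries in the fit, 1 of the 10 genes was a DEG in HFD against ND (5 of the wider list, 1131 in all), 0 in TJ against HFD (0 and 1), 0 in GT against HFD (0 and 1) and 0 in TJ against GT (4 in all). With all libraries but ND replicate 1, the values were 1, 10 and 2656 in HFD against ND, 0, 0 and 139 in GT against HFD and 1 and 247 (10 genes, all genes) in TJ against GT. Without the filter they were 0, 1 and 382 in TJ against HFD, 0, 0 and 5 in GT against HFD and 6 in all in TJ against GT. Array weights, whose estimation stopped early, gave 1, 22 and 6057 in HFD against ND, 6 and 1589 (wider list, all genes) in GT against HFD and 3, 7 and 1659 in TJ against GT. Without the mean-variance trend GT against HFD gave 0, 0 and 67.

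A pseudocount of 0.1 gave 126 DEGs in HFD against ND (0 of the wider list) and 11 in TJ against GT, and 0.01 gave 111 (0) and 8. A minimum of 5 FPKM gave 0 of the wider list in HFD against ND, 2 in GT against HFD and 6 genes in all in TJ against GT. For the wider list, quantile normalization gave 0 in HFD against ND and in GT against HFD, with 29 genes in all in TJ against GT. Median-of-ratios scaling gave 2 of it in GT against HFD, and removal of the length trend gave 0 in HFD against ND and 2 in GT against HFD. Without ND replicate 1, HFD against ND gave 1 of the 10 genes, 8 of the wider list and 1697 in all with median-of-ratios scaling, 2, 7 and 1922 with quantile normalization, and 1, 10 and 2131 with the length trend removed.

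Directions turned for some genes, none of them DEGs in the comparison as reported. Acsl1 became a lower DEG in HFD against ND without ND replicate 1 and with quantile normalization (adjusted p = 0.0116). In HFD against ND, leaving out ND replicate 1 gave, in the fit of all other libraries, -0.55 for Lpl, -0.30 for Slc27a1, 0.064 for Slc27a4, -0.38 for Fabp4 and -0.49 for Acsl1. With median-of-ratios scaling as well these were -0.60, -0.35, 0.023, -0.43 and -0.53, and with the length trend removed -0.61, -0.40, 0.0062, -0.55 and -0.55. With quantile normalization as well they were -0.16 for Lpl, -0.089 for Angptl4, -0.50 for Slc27a1, 0.0059 for Slc27a4 and -0.68 for Acsl1. Array weights gave -0.20 for Lpl, -0.43 for Slc27a1, -0.043 for Fabp4 and -0.50 for Acsl1. Acsl1 was -0.045 with median-of-ratios scaling and -0.16 with the length trend removed, which also gave 0.0026 for Gpihbp1. In TJ against HFD, Slc27a4 was 0.041 with median-of-ratios scaling, 0.068 with quantile normalization and 0.15 with the length trend removed, and Acsl1 was 0.12 with median-of-ratios scaling, 0.076 with array weights and 0.20 with the length trend removed. Cd36 in GT against HFD was 0.025 with median-of-ratios scaling. In TJ against GT, Angptl4 was -0.19 with quantile normalization and -0.063 with array weights, and Fabp5 was -0.28 with quantile normalization and -0.48 with the length trend removed. The cause of these moves was not tested. Depth is known only approximately, and no counting interval was derived from it.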
